A study of Rattus norvegicus with 14 samples.

Results

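RNA of 10 Notch pathway genes was examined in rat thyroid cells with and without the PAX8-PPARG fusion protein (PPFP): the receptors Notch1, Notch2 and Notch3, the ligands Jag1, Jag2 and Dll1, and the target genes Hes1, Hey1, Hey2 and Nrarp. The genes were taken by name from a count table of 16816 genes. Of the 10, 9 had a row in the table, 8 had enough reads to be tested and Notch3 did not. Jag2 is not analysed here. PCCL3 is a rat thyroid follicular cell line that was grown with thyrotropin, insulin and hydrocortisone. A stable PCCL3 line with a human PPFP transgene, tagged N-terminally with 3 Myc copies, is called PPFP cells here, and its control line, made with the vector alone, EV cells. Pioglitazone is an agonist ligand of PPARG that is also a ligand of PPFP. Each cell line received 1 μM pioglitazone or its vehicle DMSO for 16 hours before RNA isolation, which gave 4 groups (EV, EV with pioglitazone, PPFP, PPFP with pioglitazone) of 3 libraries from independent experiments. There was 1 EV line and 1 PPFP line, so PPFP and other differences between these stable lines cannot be told apart.

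Notch receptors are membrane proteins that are activated by the Jagged and Delta-like ligands of a neighbouring cell. Ligand binding exposes the receptor to cleavage by ADAM10 and then by gamma-secretase, and the released intracellular domain enters the nucleus, where it joins the DNA-binding protein RBPJ and a Mastermind coactivator. The complex induces the Hes and Hey genes, which encode transcriptional repressors, and Nrarp, which encodes a feedback inhibitor of the intracellular domain. In the thyroid, Notch signaling has been studied in the development of follicular cells and C cells and in carcinomas. The RNA level of a receptor or target gene is not a measure of receptor cleavage, which was not assayed.

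Between 23724703 and 35240176 reads per library were counted on genes, so that 3 counts, taken here as the floor of detection, corresponded to between 0.0813 and 0.128 CPM. Levels are given as CPM, the counts of a gene relative to the library total, scaled with edgeR's TMM factors over the 12 libraries, which compares a gene between libraries but not with another gene of different length. All 10 thyroid follicular markers on a fixed list were above 1 CPM in every group, led by thyroglobulin (Tg). Their summed level ranged between 10462 and 14698 CPM in the EV libraries of both treatments, between 13875 and 14518 CPM in PPFP cells and between 10388 and 10671 CPM in PPFP cells with pioglitazone. The 5 measured endothelial markers summed to at most 0.909 CPM in any library, the 6 leukocyte markers to at most 1.45 CPM and the 4 C cell markers to at most 0.169 CPM. Of the 6 fibroblast markers, Pdgfra gave nearly all of a sum between 20.4 and 34.5 CPM, and 4 markers were at 0 in each group except PPFP with pioglitazone, where 2 were. Reads on Pparg, which cannot separate PPFP from endogenous Pparg, were at 1.60 ± 0.347 CPM (SD, n = 3) in EV cells and 54.1 ± 6.82 in PPFP cells. With pioglitazone they were at 1.89 ± 0.817 CPM in EV cells and 57.2 ± 5.67 in PPFP cells.

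The first comparison asked which genes differ with PPFP in the absence of pioglitazone. PPFP cells had lower Notch1, Hes1 and Hey1 RNA and higher Hey2 RNA than EV cells. In RNA of a whole culture, fewer cells with a transcript and less of it per cell cannot be told apart. The other 4 tested genes (Notch2, Jag1, Dll1 and Nrarp) did not pass the test. A gene passed at an adjusted p under 0.05 in the quasi-likelihood test of edgeR, adjusted by Benjamini-Hochberg over all genes tested. Of the 8 Notch genes 4 passed (3 lower, 1 higher), against 45.2% of the 10264 genes tested. None was also changed above 2-fold, a limit that 14.6% of all genes passed. The groups did not overlap for 4 of the 8, against 56.5% of all genes. The median log2 fold change of the 8 was -0.31, and that of all genes tested was 0.0016. The counts of Notch genes are thus close to what the whole table shows, and the account below is of the single genes.

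**Figure D1:**
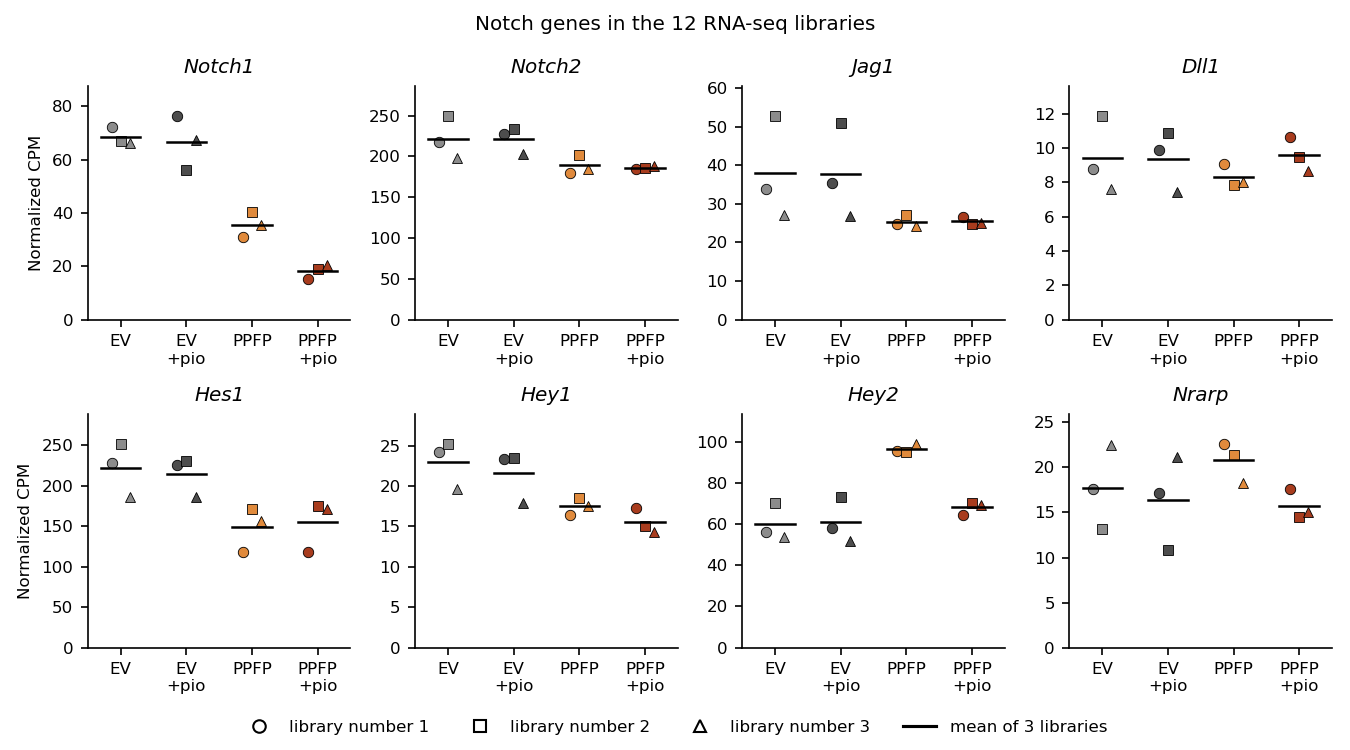
Normalized CPM of the 8 tested Notch genes (vertical axes, each starting at 0) in the 4 groups, with the 3 libraries of a group as points whose shape gives the library number and the mean as a bar. Notch1 steps down from the EV groups to PPFP cells and again to PPFP cells with pioglitazone, while Hey2 is highest in PPFP cells without pioglitazone.

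Among the receptors, Notch1 was the gene that moved most. Its level in the EV libraries was 72.3, 67.0 and 66.3 CPM (mean 68.5 ± 3.29, SD, n = 3). The PPFP libraries were at 31.2, 40.3 and 35.5 CPM (35.7 ± 4.54). Every PPFP library was therefore well below every EV library. The log2 fold change of PPFP over EV was -0.94 (SE 0.11, 95% interval -1.20 to -0.68, adjusted p = 0.00043), which is 1.92-fold lower, just short of the 2-fold limit. Notch2 was at 218, 249 and 198 CPM in EV cells and at 180, 202 and 185 CPM in PPFP cells. The groups overlapped, and the log2 fold change of -0.23 (95% interval -0.47 to 0.016) did not pass (adjusted p = 0.114; 0.0386 without EV library 3). Notch3, a receptor typical of vascular mural cells, was at or under the floor in EV cells (2, 0 and 2 counts) and in PPFP cells (0, 1 and 0 counts), so no fold is given.

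Neither ligand passed, and the EV libraries differed widely among themselves. Jag1, the Jagged ligand measured here, was at 33.9, 52.6 and 27.1 CPM in EV cells (37.9 ± 13.2, SD, n = 3). In PPFP cells it lay between 24.2 and 27.1 CPM (25.4 ± 1.54). The lowest EV library and the highest PPFP library met at 27.1 CPM. The log2 fold change of Jag1 was -0.58 (SE 0.23, 95% interval -1.10 to -0.051, adjusted p = 0.0719), which did not pass. It was -0.27 without EV library 2 and -0.77 without EV library 3, where it passed (adjusted p = 0.0124), and it passed with the library number as a block (0.0385). Dll1, a Delta-like ligand, was at 8.78, 11.8 and 7.60 CPM in EV cells and at 9.08, 7.87 and 8.05 CPM in PPFP cells. These groups overlapped widely, and the log2 fold change of -0.17 had a 95% interval of -0.60 to 0.26 (adjusted p = 0.477).

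The target genes did not move together. Hes1, a repressor induced by Notch in many tissues, was at 228, 252 and 186 CPM in EV cells and at 118, 171 and 157 CPM in PPFP cells. All 3 PPFP libraries were below the lowest EV library. The log2 fold change was -0.58 (SE 0.16, adjusted p = 0.0226), which is 1.49-fold lower. Hey1, a related repressor, was at 24.1, 25.2 and 19.6 CPM in EV cells and at 16.4, 18.5 and 17.5 CPM in PPFP cells. The gap between the groups was narrow, and the log2 fold change was -0.39 (SE 0.12, adjusted p = 0.0335). Hey2, known for its role in the heart and arteries, went the other way. It was at 56.3, 70.0 and 53.7 CPM in EV cells and at 95.2, 94.97 and 98.7 CPM in PPFP cells. All PPFP libraries were above all EV libraries, with a log2 fold change of 0.68 (SE 0.11, 95% interval 0.42 to 0.94, adjusted p = 0.0020), which is 1.61-fold higher. Nrarp, the feedback inhibitor, was at 17.7, 13.1 and 22.5 CPM in EV cells and at 22.6, 21.4 and 18.3 CPM in PPFP cells. Its groups overlapped and its log2 fold change of 0.23 (95% interval -0.22 to 0.68) did not pass (adjusted p = 0.371).

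The calls of Notch1 and Hey2 held with each of the 6 libraries left out. That of Hes1 was lost without EV library 1 (-0.56, adjusted p = 0.0701), EV library 2 (-0.48, adjusted p = 0.0688) or PPFP library 3 (-0.60, adjusted p = 0.0563), which left 2 Notch genes called in each case. The Hey1 call was lost without any 1 of the 5 libraries other than EV library 3, with log2 fold changes between -0.42 and -0.32 and adjusted p values between 0.0591 and 0.112, and with the library number as a block (0.0598).

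The promoters of the members were read because the target genes changed in opposite directions. Sequences are those of RefSeq on build GRCr8, in which 9 of the 10 genes had a window, Notch genes having 10 windows in all and Hey1 none. The 250 bases before each start site were searched on both strands for the RBPJ heptamer GTGGGAA, the hexamer TGGGAA that lies within it, the Hes N-box CACNAG, and a direct repeat of AGGTCA with a spacer of 1 base, of the kind bound by PPARG with its partner RXR. The heptamer was present in 5.27% of all 33469 windows and in those of Hes1, Hey2 and Dll1. The hexamer was present in 22.1% of all windows and in those of the same 3 genes. The N-box was present in 37.2% of all windows and in those of Hes1, Notch1, Notch3 and Nrarp. The direct repeat was in 0.0508% of all windows and in none of these genes. The windows of Hes1, Hey2 and Dll1 are shown because they share the RBPJ heptamer, with the heptamer and hexamer matches of either strand in capitals. That of Notch1, the gene with the largest change, is shown with its N-box matches in capitals. Each reads 5′ to 3′ along the strand of the gene and ends at the base before the start site: Hes1 at chr11:84213046-84213295 on the minus strand, Hey2 at chr1:28640850-28641099 on the plus strand, Dll1 at chr1:64993275-64993524 on the minus strand and Notch1 at chr3:29721614-29721863 on the minus strand of GRCr8.
Hes1: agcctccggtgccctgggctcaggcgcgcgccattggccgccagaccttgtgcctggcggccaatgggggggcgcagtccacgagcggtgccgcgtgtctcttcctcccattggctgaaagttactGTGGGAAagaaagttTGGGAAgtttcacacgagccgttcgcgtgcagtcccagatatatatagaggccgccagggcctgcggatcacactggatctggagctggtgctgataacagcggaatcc
Hey2: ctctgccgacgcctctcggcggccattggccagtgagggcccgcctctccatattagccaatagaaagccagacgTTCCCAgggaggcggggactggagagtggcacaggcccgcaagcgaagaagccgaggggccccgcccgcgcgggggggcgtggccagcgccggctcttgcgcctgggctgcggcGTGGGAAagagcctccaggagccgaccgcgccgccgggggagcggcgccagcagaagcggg
Dll1: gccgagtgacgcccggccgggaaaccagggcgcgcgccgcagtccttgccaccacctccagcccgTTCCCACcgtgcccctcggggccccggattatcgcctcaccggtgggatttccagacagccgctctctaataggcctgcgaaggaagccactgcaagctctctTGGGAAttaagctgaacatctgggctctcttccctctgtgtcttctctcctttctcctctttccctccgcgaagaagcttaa
Notch1: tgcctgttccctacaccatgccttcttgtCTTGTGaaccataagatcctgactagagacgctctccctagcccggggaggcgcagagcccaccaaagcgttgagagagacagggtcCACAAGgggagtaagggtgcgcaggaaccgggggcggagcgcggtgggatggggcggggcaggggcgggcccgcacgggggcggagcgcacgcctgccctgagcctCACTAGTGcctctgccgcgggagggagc

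In Hes1 the heptamer lay 124 to 118 bases before the start site and a further hexamer 109 to 104 bases before it, both on the strand of the gene. In Hey2 the heptamer lay 61 to 55 bases before the start site, and in Dll1 it lay on the opposite strand, 185 to 179 bases before it. The 3 genes that share the letters of the RBPJ heptamer had log2 fold changes of -0.58 (Hes1), 0.68 (Hey2) and -0.17 (Dll1, not passed) in PPFP cells without pioglitazone. A match of letters is a description of these windows and not a measured binding site.

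The second comparison was between the cell lines in the presence of pioglitazone. Notch1 was again lower in PPFP cells, here above the 2-fold limit, while Hey2, the gene that was higher without pioglitazone, did not pass. Of the 8 genes 3 passed (Notch1, Notch2 and Hey1, all lower), against 52.7% of the 10291 genes tested, and 1 was also above 2-fold, against 19.7% of all genes. The groups did not overlap for 5 of the 8, against 62.9% of all genes. The median log2 fold change was -0.34, and that of all genes was 0.012.

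Notch1 was at 76.2, 56.2 and 67.6 CPM in EV cells with pioglitazone (66.7 ± 10.1, SD, n = 3) and at 15.3, 19.1 and 20.7 CPM in PPFP cells with pioglitazone (18.4 ± 2.76). The highest PPFP library was far below the lowest EV library. The log2 fold change was -1.84 (SE 0.16, 95% interval -2.22 to -1.46, adjusted p = 0.00010), which is 3.58-fold lower. Notch2 lay between 203 and 234 CPM in EV cells and between 184 and 188 CPM in PPFP cells, and its log2 fold change was -0.24 (SE 0.076, adjusted p = 0.0349). This small difference was lost on leaving out any 1 of the 5 libraries other than EV library 3 (-0.27 to -0.20, adjusted p between 0.0652 and 0.107) and with the library number as a block (0.121). Hey1 was at 23.3, 23.5 and 17.8 CPM in EV cells and at 17.2, 15.1 and 14.3 CPM in PPFP cells, with a log2 fold change of -0.46 (SE 0.13, adjusted p = 0.0230). It was lost without EV library 1, EV library 2, PPFP library 2 or PPFP library 3 (-0.46 to -0.40, adjusted p between 0.0582 and 0.0921). Without EV library 1 or without PPFP library 3 the count of passing genes fell to 1, and without EV library 3 it was 5.

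Hes1 and Jag1 did not pass in the quasi-likelihood test here, with groups that did not overlap and log2 fold changes of -0.45 (95% interval -0.84 to -0.061, adjusted p = 0.0541) and -0.55 (95% interval -1.03 to -0.062, adjusted p = 0.0586). Hes1 passed under 8 of 13 alternatives and Jag1 under 5. Hey2 had a log2 fold change of 0.18 (95% interval -0.12 to 0.48, adjusted p = 0.281), but without EV library 2 it was 0.32 and passed (adjusted p = 0.0290). Dll1 had a log2 fold change of 0.05 and Nrarp of -0.05. Notch3 was at 0, 0 and 1 counts in EV cells and at 2, 7 and 4 counts in PPFP cells, below what the filter on low counts accepts. With no filter the 1 count against 13 had an adjusted p of 0.0275 in the same test, and the depth does not carry more than that.

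**Figure D2:**
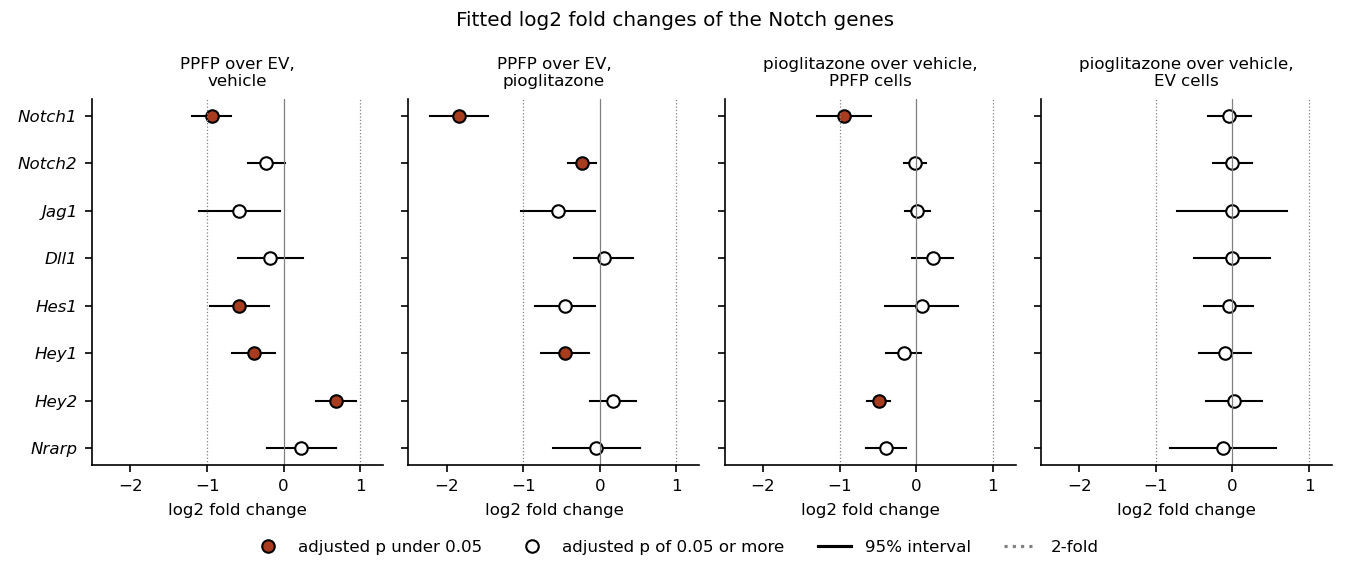
Fitted log2 fold changes (horizontal axes) of the 8 tested Notch genes in 4 comparisons, with 95% intervals as lines, filled points where the adjusted p was under 0.05 and dotted lines at 2-fold. Only Notch1 with pioglitazone, at -1.84, lies beyond the 2-fold line with its whole interval, and no gene is filled in the EV cells.

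The response to pioglitazone within each cell line was compared next. In PPFP cells Notch1 and Hey2 fell, so that 2 of the 8 genes passed, against 14.8% of the 10064 genes tested. None was also above 2-fold, a limit that 2.42% of all genes passed. The groups did not overlap for 3 of the 8 (Notch1, Hey2 and Nrarp), against 34.4% of all genes. The median log2 fold change was -0.087, and that of all genes was 0.012. The 2 comparisons of the cell lines and this one share libraries, so their values are not independent of each other. The summed thyroid markers were also lower in PPFP cells with pioglitazone (10388 to 10671 CPM) than without (13875 to 14518 CPM). This sum was mostly Tg, with a mean of 8462 CPM with and 11818 CPM without pioglitazone, and does not describe the other markers. The part of the markers in the Notch values was not tested.

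Notch1 went from 31.2, 40.3 and 35.5 CPM to 15.3, 19.1 and 20.7 CPM in the PPFP libraries of the same number, a log2 ratio of -1.03, -1.08 and -0.78. It was lower in 3 of 3 pairs, and the fitted log2 fold change was -0.94 (SE 0.15, 95% interval -1.30 to -0.59, adjusted p = 0.0088), which is 1.92-fold. Hey2 went from 95.2, 94.97 and 98.7 CPM to 64.4, 70.3 and 69.3 CPM. It too was lower in 3 of 3 pairs, by log2 ratios between -0.56 and -0.43, with a fitted log2 fold change of -0.49 (SE 0.061, 95% interval -0.64 to -0.34, adjusted p = 0.0041). Pioglitazone thus left Hey2 at 68.0 ± 3.13 CPM (SD, n = 3) in PPFP cells, next to 60.0 ± 8.78 in EV cells and 61.0 in EV cells with pioglitazone. Both calls held with each library left out.

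Nrarp was at 22.6, 21.4 and 18.3 CPM without and 17.6, 14.5 and 15.1 CPM with pioglitazone in PPFP cells, lower in 3 of 3 pairs. Its log2 fold change of -0.39 (SE 0.11, adjusted p = 0.0639) did not pass in the quasi-likelihood test without the library number in the model. It passed by the exact test of edgeR (adjusted p = 0.0209), DESeq2 (0.0182), library size alone (0.0375) and without PPFP library 1 with pioglitazone (0.0407). With the number as a block, adjusted p was 4.6e-05, a fit that compares libraries of the same number within the cell line. Of the alternatives run, the block alone let Dll1 pass, at a log2 fold change of 0.21 and an adjusted p of 0.0450 (0.276 without it), and was higher in 3 of 3 pairs by 0.10 to 0.27. With the block 4 of the 8 passed (1 higher, 3 lower), against 51.6% of all genes in that fit, so the rise in the count is not particular to the Notch genes.

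The remaining 4 genes did not pass in PPFP cells with or without the block. Notch2 had a log2 fold change of -0.01 (95% interval -0.16 to 0.13) and Jag1 of 0.02 (-0.15 to 0.18). Hes1 had a log2 fold change of 0.07 (-0.40 to 0.55) and Hey1 of -0.16 (-0.39 to 0.065). Hes1 in PPFP cells was at 118, 171 and 157 CPM without and at 118, 175 and 171 CPM with pioglitazone, library by library close to its partner. Thus Hes1 and Hey1, which were lower in PPFP cells than in EV cells, gave no detected response to the ligand. Notch3 went from 1 count in 3 libraries to 13, with an adjusted p of 0.105 without the filter on low counts.

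**Figure D3:**
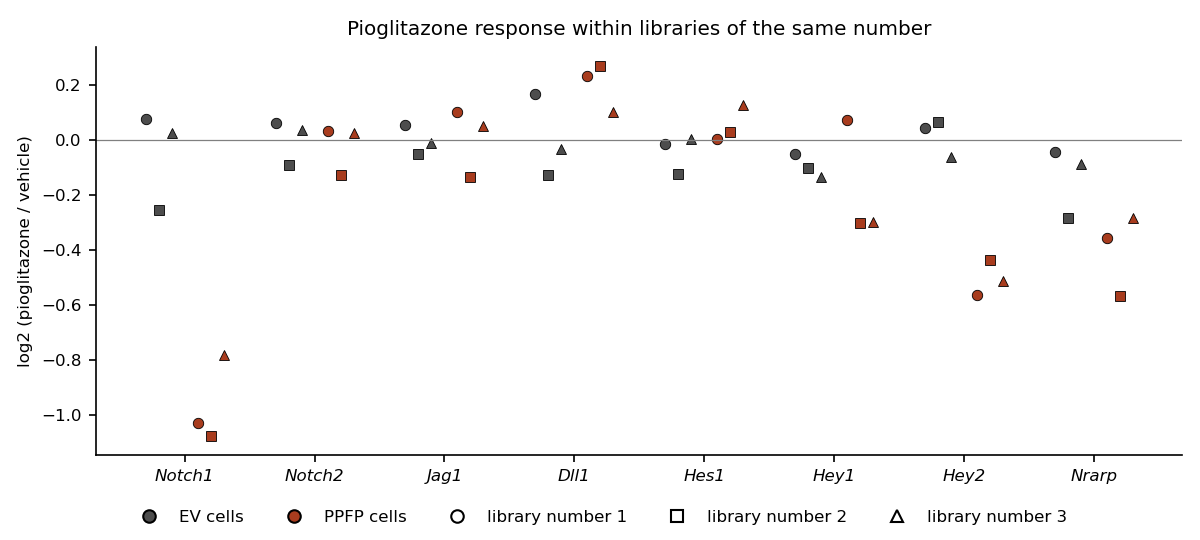
The log2 ratio of pioglitazone over vehicle (vertical axis) between libraries of the same number, for EV cells (grey) and PPFP cells (red), with the shape giving the library number. The 3 PPFP pairs lie between -1.08 and -0.78 for Notch1 and between -0.56 and -0.43 for Hey2, below all EV pairs of these genes.

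In EV cells no response of a Notch gene to pioglitazone was detected, and no gene of the table passed. The background was 0% of the 10146 genes tested, also with the 2-fold limit. An unadjusted p under 0.05 was reached by 16 genes, far under a share of 0.05, so the test without the block was conservative here. With the library number as a block 1 gene of the table had an adjusted p under 0.05, and none of the Notch genes did. The groups did not overlap for 1.48% of all genes and for none of the 8 Notch genes. The fitted log2 fold changes of the 8 lay between -0.12 (Nrarp) and 0.02 (Hey2), all at an adjusted p of 1.00, and none passed under any alternative run, DESeq2 and edgeR's exact test included. For Notch1 the 95% interval was -0.32 to 0.24 and for Hey2 it was -0.35 to 0.39.

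Whether the cell lines differed in their response was tested with an interaction term, in 1 fit of all 12 libraries. Notch1 was the 1 gene of the 8 that passed, against 2.64% of the 10482 genes tested, and none was also above 2-fold, against 0.925% of all genes. The pioglitazone response of Notch1 in PPFP cells minus that in EV cells was -0.92 on the log2 scale (SE 0.20, 95% interval -1.34 to -0.49, adjusted p = 0.0332). The call was lost in 9 of the 12 fits that left out a library, with differences between -0.96 and -0.80 and adjusted p values between 0.0581 and 0.106. It held without EV library 2 with pioglitazone, PPFP library 1 or PPFP library 3 with pioglitazone. With the library number within each line as a block it passed (adjusted p = 9.6e-06), as did 3 of the 8 genes, against 34.3% of all genes in that fit. Hey2 had a difference of -0.53 (SE 0.18, adjusted p = 0.188) that passed only with the block (adjusted p = 1.0e-05). Nrarp likewise passed only with the block, at -0.28 (adjusted p = 0.852 without and 0.0393 with it). Nrarp was lower with pioglitazone in 3 of 3 pairs of EV cells as well, by log2 ratios between -0.28 and -0.04.

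Ordered by level, Notch1 was highest in the EV groups, which did not differ from each other beyond their spread, then in PPFP cells and lowest in PPFP cells with pioglitazone. For Hey2 the order was PPFP cells first, and the other 3 groups overlapped. The EV libraries varied together in several of these genes: Notch2, Jag1, Dll1, Hes1, Hey1 and Hey2 were highest in EV library 2 and lowest in EV library 3 with both treatments, whereas Nrarp was lowest in library 2 and highest in library 3. In the PPFP groups this order held for Jag1 without pioglitazone and for none of the other 5 genes. The source of this spread was not tested.

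The rest of the pathway was described with a list of 56 other Notch pathway genes, of which 48 had a row. Values given without and with pioglitazone are those of PPFP over EV cells unless a response is named. Without pioglitazone, 17 of the 42 tested passed between the cell lines (4 higher, 13 lower in PPFP cells; 40.5%), and 4 of them, all lower, were also above 2-fold. Of these 4, Heyl and Dlk2 had passed the filter on low counts only through their EV libraries, so that they had to differ, and the counts that hold them are a description. Their median log2 fold change was -0.17. With pioglitazone 22 of 41 passed (6 higher, 16 lower; 53.7%), 6 of them above 2-fold (2 higher, 4 lower), with a median of -0.28. These shares stand beside 45.2% and 52.7% of all genes, and the counts above 2-fold beside 14.6% and 19.7%. With the library number as a block the counts were 16 and 15, against 39.5% and 44.2% of all genes in those fits. When PPFP cells received pioglitazone 7 of 40 passed (3 higher, 4 lower; 17.5%), against 14.8% of all genes, and 14 with the block, against 51.6%. In EV cells none of 41 did. The interaction passed for 1 of 42, Dtx3l, an E3 ubiquitin ligase of the Deltex family, at -0.76 (SE 0.14, adjusted p = 0.0152), against 2.64% of all genes, and for 9 with the block, against 34.3%. The count of 17 fell to 10 without PPFP library 2 or without PPFP library 3. The count of 7 fell to between 2 and 3 without library 2 or library 3 of either PPFP group. Without PPFP library 2 or PPFP library 3 the interaction passed for none.

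**Figure D4:**
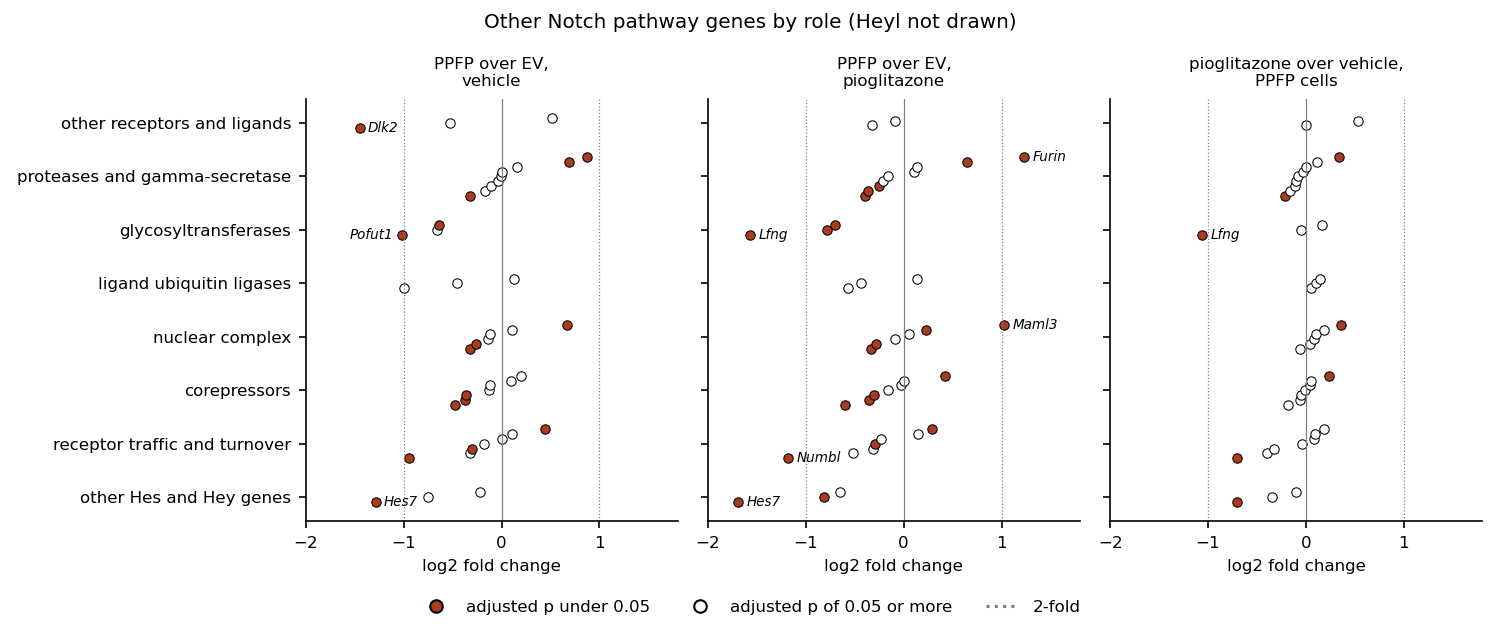
Fitted log2 fold changes (horizontal axes) of the other tested Notch pathway genes except Heyl, arranged by role, in 3 comparisons, with filled points where the adjusted p was under 0.05 and dotted lines at 2-fold. Genes also changed above 2-fold are named: Furin and Maml3 to the right, Dlk2, Pofut1, Lfng, Numbl and Hes7 to the left.

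Of the 3 tested sugar transferases that modify the receptor, 2 passed without pioglitazone and 3 with it, all lower in PPFP cells, beside 45.2% and 52.7% of all genes. The 2 were Pofut1 and Poglut1, which add the O-fucose and O-glucose of the Notch repeats. Pofut1 was at 24.0 ± 1.41 CPM in EV cells and 11.9 ± 1.19 in PPFP cells (SD, n = 3), giving a log2 fold change of -1.02 (adjusted p = 0.00034). With pioglitazone it was -0.78 (adjusted p = 0.00050). Lfng, the lunatic fringe enzyme that extends O-fucose and alters the choice of ligand, fell with pioglitazone in PPFP cells. It was at 6.69, 7.28 and 6.94 CPM in PPFP cells and at 2.99, 3.69 and 3.27 CPM with pioglitazone. The groups lay far apart, with a log2 fold change of -1.06 (SE 0.13, adjusted p = 0.0035) that held with each library left out. In EV cells Lfng was at 11.9, 6.88 and 14.2 CPM, a wide spread, and PPFP over EV was -0.66 without (adjusted p = 0.0671) and -1.57 with pioglitazone (adjusted p = 0.0040). The interaction of Lfng was -0.92 (adjusted p = 0.376; 6.9e-05 with the block).

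Of the 9 proteases and gamma-secretase subunits, 3 passed without pioglitazone (2 higher, 1 lower) and 5 with it (2 higher, 3 lower), beside 45.2% and 52.7% of all genes. With the block 3 passed in each, beside 39.5% and 44.2%. Furin, which cleaves Notch during its passage through the Golgi, rose from 262 ± 20.4 CPM in EV cells to 479 ± 4.81 in PPFP cells (SD, n = 3), giving a log2 fold change of 0.87 (adjusted p = 0.00018). With pioglitazone it was 1.23 (adjusted p = 5.4e-05). Pioglitazone raised it further in PPFP cells by 0.34 (adjusted p = 0.0081), a call lost without PPFP library 2 of either treatment (adjusted p = 0.0559 and 0.0553). Adam10 rose by 0.69 without pioglitazone (adjusted p = 0.0011) and by 0.65 with it (adjusted p = 0.0017). The gamma-secretase subunit Ncstn fell by 0.32 and by 0.40 (adjusted p = 0.0123 and 0.0021).

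In the nuclear complex 3 of 6 tested genes passed without and 4 with pioglitazone, and 2 in each with the block, beside the same shares of all genes. Rbpj, the DNA-binding partner of the receptor, fell by 0.32 without and by 0.28 with pioglitazone (adjusted p = 0.0149 and 0.0237), and the second call was lost with the library number as a block (0.0766). The coactivator Maml3 rose, from 26.9 ± 2.49 CPM in EV cells to 42.9 ± 1.90 in PPFP cells (SD, n = 3), by 0.67 without (adjusted p = 0.0012) and by 1.02 with pioglitazone (adjusted p = 0.00015). Its response to pioglitazone in PPFP cells was 0.36 (adjusted p = 0.0168), lost without PPFP library 3, or without library 2 or library 3 of PPFP cells with pioglitazone (adjusted p between 0.0827 and 0.0843). Among the 7 corepressors Hdac1, Ctbp1 and Ctbp2 fell in both comparisons of the cell lines (-0.60 to -0.31), although Ctbp1 with pioglitazone was lost with the block (adjusted p = 0.0684). Ncor1 was higher by 0.42 in PPFP cells than in EV cells when both had pioglitazone (adjusted p = 0.0023), and its response in PPFP cells was 0.24 (adjusted p = 0.0299). None of the 3 ubiquitin ligases that act on the ligands passed in either comparison in the quasi-likelihood test without the block, and with it Neurl1B passed without pioglitazone (adjusted p = 0.0268). Of the 7 regulators of receptor traffic and turnover, 3 passed in each comparison (1 higher, 2 lower), beside 45.2% and 52.7% of all genes. With the block 2 passed without and 1 with pioglitazone, beside 39.5% and 44.2%. Dtx3l was higher in PPFP cells without pioglitazone (0.44, adjusted p = 0.0082) and lower with it (-0.30, adjusted p = 0.0477; 0.111 with the block). Dtx2, another Deltex ligase, was higher with pioglitazone (0.29, adjusted p = 0.0369; 0.0993 with the block). Numbl, a Numb-like adaptor, fell from 14.3 ± 1.99 CPM in EV cells to 7.43 ± 0.836 in PPFP cells (by 0.94 on the log2 scale, adjusted p = 0.0020), and by 1.18 with pioglitazone (adjusted p = 0.00039).

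Of the other Hes and Hey genes 2 of 4 passed without pioglitazone and 3 of 4 with it, all lower in PPFP cells, beside 45.2% and 52.7% of all genes. Both counts hold Heyl, whose difference was fixed by the filter on low counts, and are a description. Hes6, a Hes relative that can oppose Hes1, passed with pioglitazone (-0.82, adjusted p = 0.0039) and not without it (-0.22, adjusted p = 0.198). It was at 44.4, 55.2 and 56.0 CPM in PPFP cells and at 26.1, 34.9 and 33.5 CPM after pioglitazone, a response of -0.71 (SE 0.15, adjusted p = 0.0245). Its response in EV cells was -0.10 (adjusted p = 1.00), and the interaction of -0.62 passed with the block (adjusted p = 4.1e-06) and not without it (0.171). Heyl, a Hey relative, was at 38, 32 and 47 counts in EV cells and at 0, 1 and 2 counts in PPFP cells. It passed the filter only through EV cells in both comparisons, so its test could not come out otherwise and only its counts are described. The ratio of EV over PPFP was 33.7, with a 95% counting interval of 11.3 to 166. With pioglitazone Heyl was at 37, 24 and 28 counts against 2, 2 and 0, a ratio of 19.2 (7.22 to 71.8). These intervals cover counting error only. Hes7, an oscillating gene of the embryonic segmentation clock, had log2 fold changes of -1.29 (adjusted p = 0.0122) and -1.69 with pioglitazone (adjusted p = 0.0048). It was low in all groups, at most 2.71 CPM, and the first call was lost without PPFP library 3 (adjusted p = 0.0520). Dlk2, a Delta-like membrane protein that can inhibit Notch, was at 19, 18 and 24 counts in EV cells and 4, 7 and 8 counts in PPFP cells. Dlk2 too passed the filter only through EV cells, so its log2 fold change of -1.45 is a description. With pioglitazone its value of -0.33 did not pass (adjusted p = 0.636).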

How the data were processed

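RNA of 12 PCCL3 libraries was sequenced. According to the methods of the study and the submitters' processing notes, reads were aligned to rn4 with TopHat2 2.0.11 and counted per gene with HTSeq 0.6.1p1 in the intersection-strict mode. The authors deposited these unnormalized counts by gene symbol. The strand setting of the counting is not given in the sources used here, so reads of overlapping antisense genes may be included. ChIP peaks (1 library and its input) had positions in rn4, for which no annotation was used, and are not analysed here.

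Low counts were removed by filterByExpr and libraries scaled by TMM in edgeR 4.0.16 (R 4.3.3, limma 3.58.1). The quasi-likelihood test, adjusted by Benjamini-Hochberg, was run on the 6 libraries of each pair of groups, or on all 12 for the interaction. The code was tested on simulated data. Passing needed an adjusted p under 0.05, and the second limit was a fold change above 2. Intervals are at 95%. The Notch genes, the list of other pathway genes and the markers were chosen with earlier results of these data known. Other pathway genes were named where they passed both limits in either comparison of the cell lines or in the response of PPFP cells. Poglut1, Adam10, Ncstn, Rbpj, Hdac1, Ctbp1, Ctbp2, Ncor1, Neurl1B, Hes6, Dtx2 and Dtx3l were named after their values were seen. Figures were drawn with matplotlib 3.10.9.

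Whether library numbers pair the samples was checked by correlating deviations from the group means. The correlations were 0.743, 0.464 and 0.432 for numbers 1 to 3 between the PPFP groups and 0.530, 0.729 and 0.774 between the EV groups, so the numbers were taken as pairs there, although PPFP library 2 correlated best with library 3 of the pioglitazone group. The alternatives tried were DESeq2 1.42.0, the exact test of edgeR on tagwise dispersions, RLE size factors, library size alone, no filter, the library number as a block, all 12 libraries in one fit and each library left out.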

Additional observations from a re-analysis of the deposited data

Results flagged for a closer look

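The pioglitazone response of Notch1 differed between the cell lines by the test of the difference itself: PPFP cells minus EV cells was -0.92 on the log2 scale (SE 0.20, adjusted p = 0.0332, edgeR's quasi-likelihood test). It was lower with pioglitazone in 3 of 3 PPFP pairs and in 1 of 3 EV pairs. The call was lost in 9 of the 12 fits that left out a library (adjusted p between 0.0581 and 0.106). With the library number within each line as a block the difference was -0.91 and passed (adjusted p = 9.6e-06), as did 34.3% of all genes in that fit. Groups of 3 libraries were not examined for single outlying values.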

How the results depend on the processing

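The directions and calls of Notch1 and Hey2 were the same under every alternative in the comparison of vehicle-treated lines and in the response of PPFP cells, as were those of Notch1 between the lines with pioglitazone. Between the cell lines without pioglitazone the 4 passing genes became 2 to 6 with a library left out, and library size alone put 1 gene above 2-fold (0 to 1 with a library left out). Jag1 also passed by the exact test (adjusted p = 0.0462), DESeq2 (0.0347), library size alone (0.0488) and, as did Notch2 (0.0386), without EV library 3 (0.0124). Lfng also passed by the exact test (adjusted p = 0.0309), DESeq2 (0.0351), library size alone (0.0469) and without EV library 2 (0.0032). With pioglitazone the 3 passing genes became 5 by the exact test, DESeq2 or library size alone, through Hes1 and Jag1, and 6 with no filter, which added Notch3 and put 2 genes above 2-fold. Hes1 also passed with RLE size factors (adjusted p = 0.0485), all 12 libraries in one fit (0.0425), and without EV library 3 (0.0308) or PPFP library 2 (0.0441). With a library left out they were 1 to 5. Values that changed sign, none of which passed, were Dll1 with pioglitazone at -0.091 and Jag1 in the PPFP response at -0.033 and in the interaction at -0.027 with library size alone, and, in EV cells, Notch2 at 0.0022 and Dll1 at 0.00037 with library size alone and Notch2 at 0.00038 with all 12 libraries. Library size alone moved the median of all genes to -0.080 without and -0.12 with pioglitazone, so values on that scale are relative to it. The cause of these changes was not tested.

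Across cell lines, libraries of the same number did not deviate together (correlations -0.249, 0.316 and -0.320 without and -0.246, 0.237 and -0.378 with pioglitazone). The methods put the samples of an experiment on the same lanes, but no source used here ties a number to an experiment. A replicate block there left 4 passing genes without pioglitazone (4050 of all 10264 genes passed), Jag1 in (adjusted p = 0.0385) and Hey1 out (0.0598), and 2 with it (4545 of 10291), Notch2 out (0.121), and Nrarp turned to 0.0035. Library 2 without pioglitazone correlated best with its own number, and no other library did. Within the lines the replicate block gave 4 passing Notch genes and 14 other pathway genes for the PPFP response, and 3 and 9 for the interaction. In EV cells it turned Notch2 to 0.0015 and Dll1 to 0.0011. It changed no other call of a Notch gene.

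With a library left out, the interaction passed for 0 to 1 Notch genes, with 0 to 1 above 2-fold. The PPFP response put 0 to 1 above 2-fold. The other pathway genes passing were 10 to 19 without pioglitazone, 2 to 7 in the PPFP response and 0 to 1 in the interaction. Log2 values that changed sign ranged as follows. With pioglitazone Dlk2 ranged from -0.90 to 0.14, Dll1 from -0.11 to 0.15 and Nrarp from -0.28 to 0.16, and without it Dll1 from -0.31 to 0.025. In the PPFP response Hes1 ranged from -0.089 to 0.22, Jag1 from -0.022 to 0.050 and Notch2 from -0.064 to 0.021. In the interaction Hes1 ranged from -0.033 to 0.27, Hey1 from -0.20 to 0.021, Jag1 from -0.30 to 0.29 and Notch2 from -0.12 to 0.052. In EV cells Dll1 ranged from -0.12 to 0.19, Hes1 from -0.15 to 0.041, Hey1 from -0.18 to 0.015, Hey2 from -0.13 to 0.14, Jag1 from -0.28 to 0.29, Notch1 from -0.15 to 0.071, Notch2 from -0.064 to 0.083 and Nrarp from -0.36 to 0.11. A group left with 2 libraries takes its spread from both groups of the fit. Notch3 and Heyl are limited by depth.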
